A study of Oryctolagus cuniculus with 6 samples.

Results

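The genes of the IL-1 family were examined in primary limbal stem cells (LSCs) of the rabbit, which grew out of explants of the limbus, the rim of the cornea that holds its epithelial stem cells. The members were 10 genes chosen by symbol, 5 for cytokines that act as ligands (IL1A, IL1B, IL18, IL33 and IL36G), IL1RN for a receptor antagonist, IL1R2 for a decoy receptor, and IL1R1, IL1RAP and IL1RL1 for subunits of signalling receptors. All 10 were found among the 22190 genes of the deposited table, and all 10 were among the 15029 genes with enough counts to be tested. RNA-seq libraries came from 3 cultures labelled as fresh and 3 labelled as preconditioned, and no strain, age or sex of the animals was stated. In the fresh group the explants were cut from corneas that had not been frozen. In the preconditioned group the corneas were first kept in liquid nitrogen for 7 days in a freezing medium with serum, dimethyl sulfoxide and 10 ng/mL IL-1β protein. Freezing and IL-1β came together, so their effects cannot be told apart, and no libraries from corneas that were frozen without the cytokine are among those analysed here. Neither the time in culture before RNA was taken nor whether each library came from its own animal was given in the sources used here, so that the spread between libraries may be partly technical.

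Cytokines of this family carry alarm signals of barrier tissues. IL-1α and IL-1β bind IL1R1, which recruits the accessory chain IL1RAP and signals through MYD88 and IRAK kinases to NF-κB. IL1RN occupies IL1R1 without signalling, and IL1R2 captures the ligands without a signalling domain. IL-33 signals through IL1RL1 (ST2) with the same accessory chain, IL-18 through IL18R1 and IL18RAP, and the IL-36 cytokines through IL1RL2. In the corneal epithelium, IL-1α is held in the cells and released on injury. The IL-1β of the freezing medium was a protein, and RNA-seq counts the IL1B transcript of the cells alone.

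The 6 libraries had 31952352 to 34327534 counts on genes. On the first principal component (50.4% of the variance) preconditioned replicate 1 (8.13) lay between the fresh libraries (−53.1 to −41.1) and the other preconditioned ones (58.3 and 70.4). Of the epithelial markers, KRT5 was at 7337 to 11740 CPM (counts relative to library size, with edgeR's TMM factors) and TP63 at 226 to 246 CPM in the fresh and 112 to 184 CPM in the preconditioned libraries, while KRT14 and KRT12 were not found under these symbols. EPCAM went the other way, with 77.5 to 91.8 CPM in the fresh and 102 to 126 CPM in the preconditioned libraries, and PAX6 overlapped at 174 to 218 and 203 to 459 CPM. KRT3, a keratin of differentiated corneal epithelium, had 961, 2655 and 409 CPM in the fresh libraries and 801, 239.5 and 697 CPM in the preconditioned ones. KRT15 (0.988 to 9.71 CPM) and CDH1 (427 to 591 CPM) overlapped between the groups too. Markers of stromal fibroblasts were present too, and 9 of 9 summed to 290 to 720 CPM in the fresh libraries and 849 to 1587 CPM in the preconditioned ones. COL1A1 carried this separation, since the other 8 summed to 233, 310 and 611 CPM in the fresh libraries and 526.5, 895 and 344 CPM in the preconditioned ones, and 4 of them had negative log2 fold changes. Among these lists edgeR called COL1A1 as higher and none of the 7 epithelial markers found, of which 3 had an unadjusted p under 0.05 and DESeq2 called none. Of all tested genes, edgeR called 2.29% (1.08% as higher) and 30.6% had an unadjusted p under 0.05. DESeq2 called 7.78% of the genes it tested. Melanocyte markers summed to at most 0.396 CPM in any library.

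The members differed widely in level. On the deposited FPKM scale, which divides by gene length, IL1RN was highest in the fresh group with 598 ± 103 FPKM (SD, n = 3). IL1A followed with 423 ± 102, IL18 with 102 ± 8.998 and IL36G with 47.8 ± 14.2 FPKM (SD, n = 3 each). The other 6 genes had fresh means of at most 6.07 FPKM, and IL1RL1 was lowest at 0.319 ± 0.0470 FPKM (SD, n = 3). In this order of levels the fresh libraries of IL1RN and IL1A overlapped, as did those of IL1RAP, IL1R1, IL1B and IL1R2 from each gene to the next. In the preconditioned group IL1A (464 ± 85.1 FPKM) and IL1RN (450.1 ± 150 FPKM) again overlapped at the top, and IL18 followed with 142 ± 12.9 FPKM (SD, n = 3 each). From IL33 (8.12 ± 7.57 FPKM) down to IL1R1 (1.95 ± 0.546 FPKM) each gene overlapped the next, with IL36G second among them at 7.60 ± 7.75 FPKM (SD, n = 3 each). IL1A and IL1RN together made up 84.8% to 87.0% of the summed FPKM of the 10 members in the fresh libraries and 80.7% to 86.7% in the preconditioned ones. IL1B made up at most 0.734% in any library. The length behind the FPKM values was 1258 bases for IL18, 9526 for IL1R1 and 16308 for IL1RAP, so the low FPKM of these 2 receptor chains goes with long gene models. Per read, IL1RAP had 47.1 to 80.55 CPM.

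A gene was called where edgeR's quasi-likelihood test gave a Benjamini-Hochberg adjusted p no higher than 0.05 over all tested genes and the log2 fold change (preconditioned against fresh) was 1 or more in size. By this rule 1 of the 10 members, IL1RL1, was called, and it was lower in the preconditioned group. It passed the filter on low counts through its fresh libraries alone, so that it had to differ to be tested, and nothing is read from this count against the background. Of all tested genes, 2.29% were called in either direction, 1.08% as higher and 1.20% as lower. An unadjusted p under 0.05 was found for 4 members, against 30.6% of all tested genes. IL18 had an adjusted p of 0.039 without reaching the fold cutoff, a weaker criterion that 5.08% of tested genes met. The groups did not overlap for 3 members, IL18 (higher), IL36G (lower) and IL1RL1 (lower), against 36.7% of all tested genes (17.9% higher and 18.8% lower). IL1RL1 is among these 3 and among the 4 with an unadjusted p under 0.05, so nothing is read from these counts either. The median log2 fold change of the members was 0.30, also with IL1RL1 at the bound given below, and that of all tested genes was 0.01. In bulk RNA, fewer cells of a type and less RNA per cell cannot be told apart, and this holds for each result below.

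**Figure D1:**
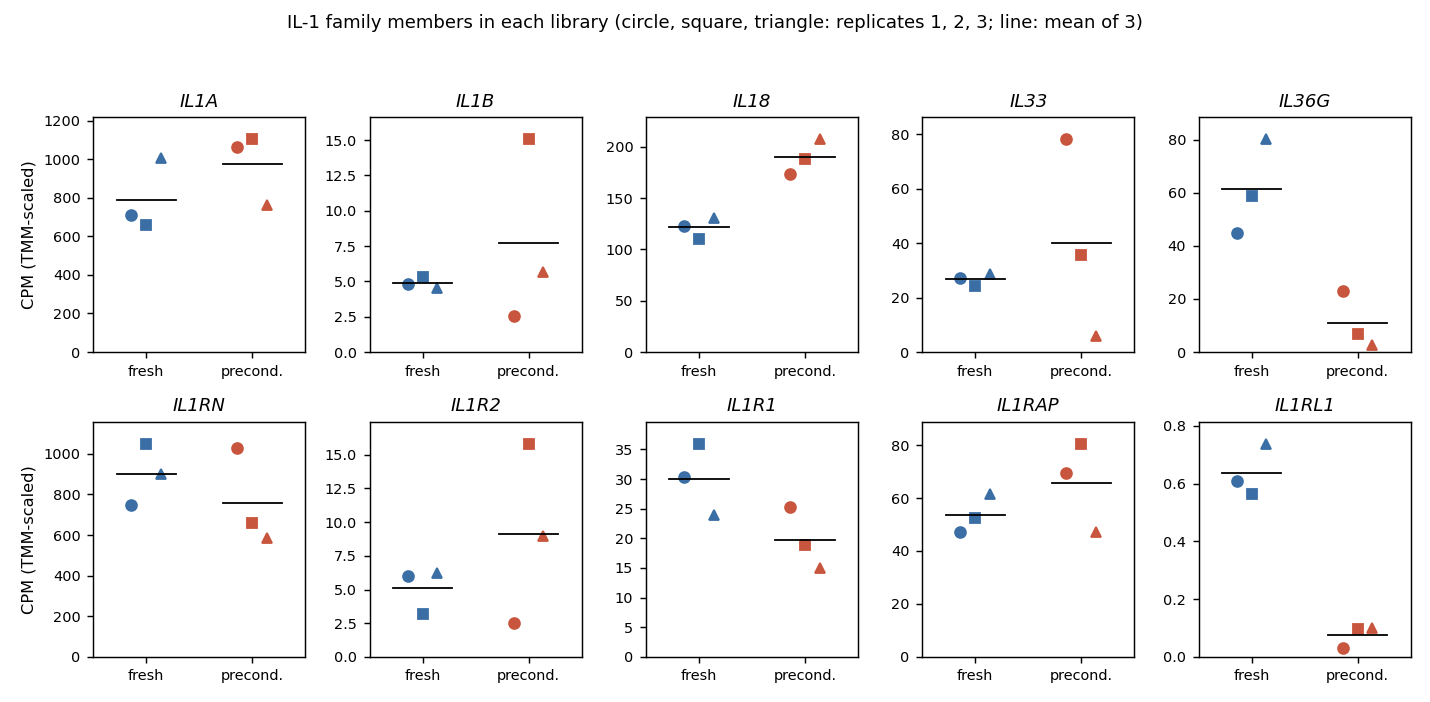
CPM of each member (vertical axis, from 0, with its own scale per gene) in the 3 fresh (blue) and 3 preconditioned (red) libraries, where lines mark group means. The groups are separate for IL18, IL36G and IL1RL1, and the preconditioned libraries of IL33 range from 5.83 to 78.3 CPM.

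Among the ligands, IL1A (NCBI gene 100009250), the epithelial alarmin, was abundant in every library. It had 711, 659 and 1005 CPM in fresh replicates 1, 2 and 3 and 1064, 1107 and 764 CPM in preconditioned replicates 1, 2 and 3. The groups overlapped, and the log2 fold change was 0.31 (standard error 0.21, adjusted p = 0.36 from edgeR). IL1RN (NCBI gene 100009558), the antagonist that competes with IL-1α and IL-1β for their receptor, was of the same order. Its values were 745, 1050 and 902 CPM in the fresh libraries and 1028, 660 and 586 CPM in the preconditioned ones, with an estimated log2 change of −0.25 (standard error 0.24, adjusted p = 0.51). Preconditioned replicates 2 and 3 lay below all fresh libraries for IL1RN, whereas preconditioned replicate 1 lay next to the highest of them. Without that library the log2 fold change of IL1RN was −0.54 (adjusted p = 0.061).

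The IL1B transcript (NCBI gene 100008990), which encodes the cytokine that had been added as protein, was scarce. It had 167, 188 and 166 counts in the fresh libraries, or 4.84, 5.29 and 4.54 CPM. In the preconditioned libraries it had 83, 472 and 171 counts, or 2.53, 15.1 and 5.63 CPM. The fresh libraries lay inside the range of the preconditioned ones, of which replicate 1 was the lowest and replicate 2 the highest of all 6. The log2 fold change was 0.66 (standard error 0.59, adjusted p = 0.47 from edgeR), and it was −0.26 without preconditioned replicate 2 and 1.07 without preconditioned replicate 1. In RefSeq's rabbit assembly mOryCun1.1, IL1B overlaps IL37. Whether the counting used strand, or how it treated overlapping genes, was not given in the sources used here. The IL1B counts, and the ratios that use them, are therefore uncertain, since reads of the pair could have been mixed or left out. IL37 had 1 to 11 counts per library.

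Markers of leukocytes, a further source of IL-1β, were followed beside IL1B. Of 9 such markers 8 were in the table, and the 7 of them other than CD68 summed to 8.30 to 13.5 CPM in the fresh libraries. In preconditioned replicates 1, 2 and 3 they summed to 6.57, 29.1 and 7.11 CPM. PTPRC (CD45), which defines leukocytes, had 0.197 to 0.493 CPM in the fresh libraries and 0.274, 1.503 and 0.296 CPM in the preconditioned ones. The library with the highest IL1B was thus also highest in these markers. In preconditioned replicate 3, however, IL1B lay above all fresh libraries and the marker sum below all of them. The part of leukocytes in the IL1B values was not tested. With CD68, a lysosomal protein that is not limited to leukocytes, the 8 markers summed to 107 to 138 CPM in the fresh libraries and 127 to 329 CPM in the preconditioned ones. Of the 7 leukocyte markers tested, edgeR called none, 1 had an unadjusted p under 0.05, and DESeq2 called CD68. In the same order, the shares of all genes tested were 2.29%, 30.6% and 7.78%.

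IL18 (NCBI gene 100144338), a cytokine that epithelia store as a precursor, was higher in every preconditioned library than in every fresh one. It had 123, 110 and 131 CPM in the fresh libraries and 174, 188 and 208 CPM in the preconditioned ones. These values correspond to a 1.56-fold difference, on the log2 scale 0.64 (standard error 0.12, adjusted p = 0.039 from edgeR), which is under the fold cutoff. The adjusted p was 0.090 to 0.15 without any 1 library other than preconditioned replicate 1, and 0.0097 without that one. IL18 also varied least between preconditioned libraries, whose highest value was 1.197 times the lowest. With library size in place of TMM scaling, its log2 fold change was 0.48 (adjusted p = 0.052), while the median of all tested genes then moved to −0.16. COL1A1, a marker of stromal fibroblasts, was also higher in all preconditioned libraries, whereas the sums of the other 8 markers overlapped between the groups, and the part of these cells in the IL18 values was not tested.

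IL33 (NCBI gene 100356081), a nuclear alarmin of barrier cells, showed no common direction. The fresh libraries were close to each other with 27.0, 24.3 and 28.7 CPM. The preconditioned libraries had 78.3, 35.65 and 5.83 CPM, a 13.4-fold range. Replicates 1 and 2 lay above and replicate 3 below all fresh libraries, and the log2 fold change was 0.58 (standard error 0.75, adjusted p = 0.63 from edgeR). The sign of this estimate depended on preconditioned replicate 1, without which it was −0.37. IL33 overlaps an uncharacterised locus, LOC127491074, in the RefSeq annotation.

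IL36G (NCBI gene 100355269), an agonist made by keratinocytes and other surface epithelia, had the widest range of the members. It had 1546, 2089 and 2937 counts in the fresh libraries, or 44.8, 58.8 and 80.3 CPM. In the preconditioned libraries it had 760, 213 and 79 counts, or 23.1, 6.81 and 2.60 CPM. The groups did not overlap, and preconditioned replicate 1 was the nearest to the fresh libraries. The estimate after preconditioning was 5.64-fold lower (log2 fold change −2.50, standard error 0.74), but edgeR's adjusted p of 0.083 missed the threshold. Without preconditioned replicate 1 the log2 fold change was −3.71 (adjusted p = 0.011), and 9.99% of tested genes were then called, 3.98% as higher and 6.01% as lower. DESeq2 called IL36G with an adjusted p of 0.027, along with IL1RL1 and 7.78% of the genes it tested, 3.62% as higher and 4.17% as lower.

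The other IL-36 genes, which were not members, were looked at beside IL36G. LOC100355520, described in the deposited table as interleukin 36 alpha, had 5.10, 8.97 and 7.49 CPM in the fresh libraries and 2.37, 0.608 and 0.494 CPM in the preconditioned ones. Its log2 fold change was −2.625 (standard error 0.63, adjusted p = 0.055 from edgeR). IL36RN, which encodes the antagonist of the IL-36 receptor, had 5.62, 4.25 and 6.37 CPM in the fresh libraries and 2.16, 0.288 and 0.2305 CPM in the preconditioned ones. Its log2 fold change was −2.59 (standard error 0.83, adjusted p = 0.095). Preconditioned replicate 1 was again the nearest to the fresh libraries. Agonists and antagonist were therefore lower in all 3 preconditioned libraries than in all 3 fresh ones, as were 18.8% of all tested genes, and none passed the threshold in edgeR with all libraries, TMM scaling and the count filter, while each did in DESeq2 (adjusted p from 1.7e-04 to 0.027). In edgeR, LOC100355520 was called with library size alone (adjusted p = 0.044), without the count filter (0.050) and without preconditioned replicate 1 (log2 fold change −3.71, adjusted p = 0.004). IL36RN was called without preconditioned replicate 1 (log2 fold change −4.37, adjusted p = 0.0038). IL1RL2, the receptor chain of IL-36, had 99.8, 128.5 and 87.3 CPM in the fresh libraries and 137, 88.9 and 72.8 CPM in the preconditioned ones. Its groups overlapped, with an estimated log2 change of −0.08 (standard error 0.25, adjusted p = 0.85).

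**Figure D2:**
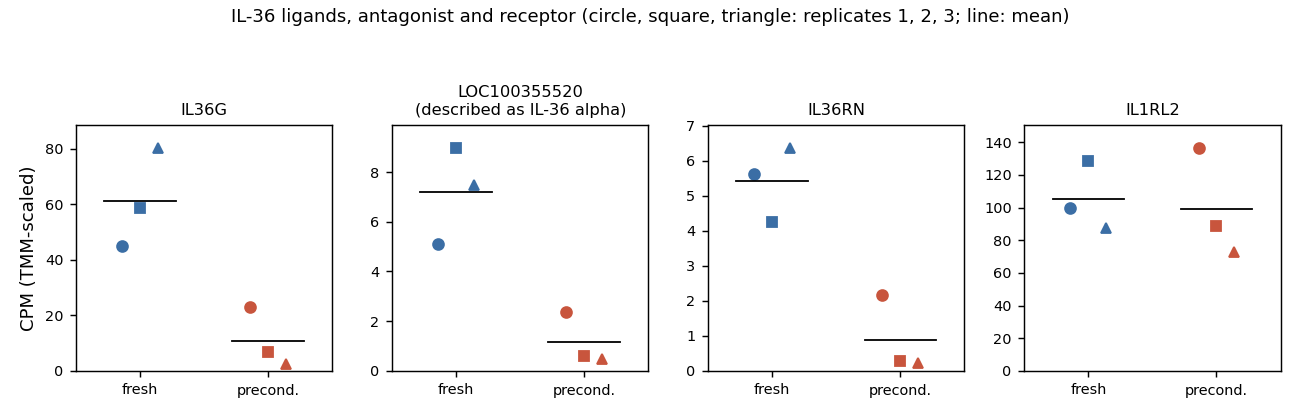
CPM of the IL-36 genes (vertical axes from 0) in each fresh (blue) and preconditioned (red) library, where lines mark group means. For IL36G, LOC100355520 and IL36RN preconditioned replicate 1 lies between the fresh libraries and the other preconditioned ones, and IL1RL2 overlaps between the groups.

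Genes with a profile like that of IL36G were sought among the 9432 genes with a symbol and a mean of at least 5 CPM. Likeness was the root mean square difference of log2 CPM over the 6 libraries after each gene was centred on its own mean. The nearest were TRIB3, a stress-induced pseudokinase (0.377), ETV7, an ETS transcription factor (0.385), and GJB6, which encodes a gap junction protein (0.5145). GJB6 had 95.5, 98.2 and 108.5 CPM in the fresh libraries and 77.9, 12.8 and 9.62 CPM in the preconditioned ones. Since these genes were chosen by their profile, the shared pattern is a description.

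Among the receptors, IL1R1 (NCBI gene 100352905), the signalling receptor for IL-1α and IL-1β, had 30.3, 35.98 and 23.9 CPM in the fresh libraries. It had 25.3, 18.8 and 15.0 CPM in the preconditioned libraries. The groups overlapped through preconditioned replicate 1, and the log2 fold change was −0.61 (standard error 0.23, adjusted p = 0.13 from edgeR). Without that library it was −0.84 (adjusted p = 0.032), under the fold cutoff. IL1RAP (NCBI gene 100341281), the accessory chain shared by the receptors for IL-1, IL-33 and IL-36, had 47.1, 52.6 and 61.3 CPM in the fresh libraries and 69.4, 80.55 and 47.2 CPM in the preconditioned ones. The groups overlapped (log2 fold change 0.29, standard error 0.21, adjusted p = 0.37), and LOC127482918 overlaps the gene in the RefSeq annotation.

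The decoy receptor IL1R2 (NCBI gene 100344048) had 6.03, 3.15 and 6.24 CPM in the fresh libraries and 2.50, 15.8 and 8.99 CPM in the preconditioned ones. As for IL1B, preconditioned replicate 1 was the lowest and replicate 2 the highest of all 6 libraries. The log2 fold change was 0.82 (standard error 0.62, adjusted p = 0.40 from edgeR), and it was 0.16 without preconditioned replicate 2. Neutrophils and monocytes express this decoy as well, and the summed CPM of the 7 leukocyte markers other than CD68 was highest in preconditioned replicate 2 but lower in preconditioned replicates 1 and 3 than in any fresh library, although single markers differed. ITGAM, a marker of both, had 0.191 to 0.985 CPM in the fresh libraries and 0.152, 4.16 and 1.09 CPM in the preconditioned ones. CD14, a monocyte marker, had 4.39 to 7.82 CPM in the fresh libraries and 3.59, 11.4 and 2.37 CPM in the preconditioned ones. The part of these cells in the IL1R2 values was not tested.

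IL1RL1 (NCBI gene 100350150), the receptor of IL-33, was the member that passed both cutoffs. It had 21, 20 and 27 counts in the fresh libraries, or 0.609, 0.563 and 0.738 CPM. It had 1, 3 and 3 counts in the preconditioned libraries, or 0.0304, 0.0959 and 0.0988 CPM. With 3 counts per library as the floor, the preconditioned group was at least 6.68-fold lower in its observed counts. This bound makes no allowance for counting noise. The fitted value of −3.03 on the log2 scale (edgeR, standard error 0.57, adjusted p = 0.039) depends on the prior count at such low counts. With no filter on low counts, where every gene is tested, its adjusted p was also 0.039. The call was lost without any 1 of 5 libraries (adjusted p from 0.091 to 0.15), and without preconditioned replicate 1 the adjusted p was 0.023.

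Mast cells and some endothelial cells are known to carry IL1RL1, and their markers were followed beside it. KIT, a receptor of mast cells and melanocytes, had 4, 12 and 8 counts in the fresh libraries and 0, 0 and 2 counts in the preconditioned ones. The other mast cell markers of the list, CPA3 and MS4A2, were not found under these symbols. Of the endothelial markers, PECAM1 had 2.30 to 2.99 CPM in the fresh libraries and 0.883, 12.8 and 4.97 CPM in the preconditioned ones. VWF had 0, 6 and 8 counts in the fresh libraries and 1, 0 and 0 counts in the preconditioned ones, and CDH5 had 0, 2 and 3 against 4, 7 and 6 counts. The endothelial markers thus had no common direction, and the part of mast cells and endothelial cells in the IL1RL1 values was not tested.

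The balance between activating and blocking members was described by ratios of FPKM within each library. IL1RN over IL1A was 1.31, 1.98 and 1.118 in the fresh libraries and 1.203, 0.742 and 0.955 in the preconditioned ones. Per length, the antagonist thus exceeded the agonist in all fresh libraries and in preconditioned replicate 1, but in CPM it was below IL1A in fresh replicate 3 (902 against 1005) and in preconditioned replicate 1 (1028 against 1064). The groups overlapped between fresh replicate 3 and preconditioned replicate 1, and the mean log2 ratios were 0.51 ± 0.43 and −0.08 ± 0.35 (SD, n = 3 each). IL1RN over IL1B was 172 to 222 in the fresh libraries and 454.5, 48.8 and 116 in the preconditioned ones, so that the antagonist transcript exceeded that of IL1B in every library. IL1R2 over IL1R1 was 0.781, 0.344 and 1.02 in the fresh libraries and 0.388, 3.301 and 2.36 in the preconditioned ones. The decoy transcript was above that of the signalling receptor in fresh replicate 3 and in preconditioned replicates 2 and 3, while preconditioned replicate 1 lay among the fresh libraries. This order rests on the length of IL1R1, since in CPM IL1R2 was below IL1R1 in every library.

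IL1RL1 over IL1RAP was 0.0824 to 0.0996 in the fresh libraries and 0.00338 to 0.0161 in the preconditioned ones, without overlap. IL18 over IL1B was 29.5 to 40.75 in the fresh libraries, and the values of 97.2, 17.6 and 52.2 in the preconditioned ones lay on both sides of this range. Of the 5 ratios, IL1RL1 over IL1RAP was the one whose groups did not overlap, and it rests on the low counts of IL1RL1.

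**Figure D3:**
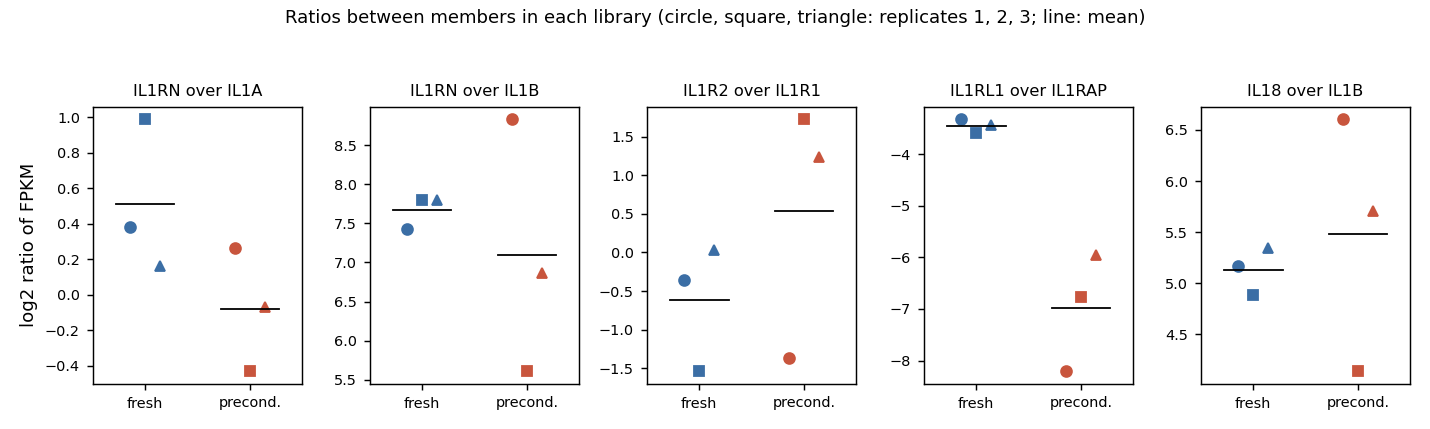
log2 ratios of FPKM between members (vertical axes, each with its own scale) in each fresh (blue) and preconditioned (red) library, where lines mark group means. IL1RL1 over IL1RAP is separate between the groups, and the other 4 ratios overlap.

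Differences between libraries of one group were wider after preconditioning for 9 of the 10 members, as measured by the SD of log2 CPM. IL1A was the exception. For IL1RL1 the spread after preconditioning is one between 1, 3 and 3 counts, where counting noise adds to it. A wider spread after preconditioning was also found for 65.2% of all tested genes. The highest preconditioned library exceeded the lowest by 5.98-fold for IL1B, 6.34-fold for IL1R2, 8.89-fold for IL36G and 13.4-fold for IL33, whereas no member exceeded a 1.98-fold range among the fresh libraries.

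In mOryCun1.1, 8 ligand and antagonist genes of the family form a cluster in the order IL1A, IL37, IL1B, IL36G, IL36A, IL36RN, IL1F10 and IL1RN. LOC100355520 of the deposited table is IL36A there by its NCBI gene identifier. The genes of this cluster with the lowest log2 fold changes, IL36G, LOC100355520 and IL36RN (−2.625 to −2.50), are neighbours in it, and IL1A and IL1RN at its ends had estimates of 0.31 and −0.25. The receptor genes form another cluster in the order IL18RAP, IL18R1, IL1RL1, IL1RL2, IL1R1 and IL1R2. There IL18R1 and IL1RL1, which lie next to each other, had log2 fold changes of 1.14 and −3.03.

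**Figure D4:**
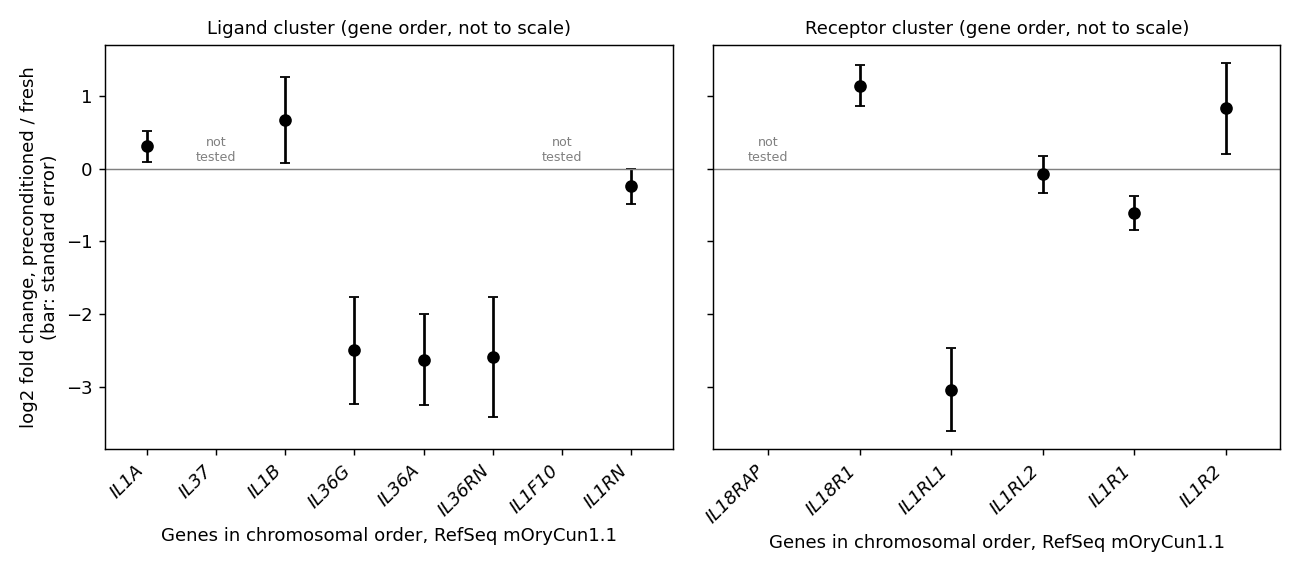
log2 fold changes with standard errors (vertical axis) of the genes of the ligand cluster and the receptor cluster, in chromosomal order along the horizontal axis, not to scale. IL36G, IL36A (LOC100355520) and IL36RN lie between −2.625 and −2.50, and IL37, IL1F10 and IL18RAP had too few counts to be tested.

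The other genes of the pathway were taken from 4 lists. Of 12 further family genes, 9 were in the table under their symbols, and 5 were tested. Of all tested genes, 2.29% were called by edgeR and 30.6% had an unadjusted p under 0.05. DESeq2 called 3.62% of the genes it tested as higher and 4.17% as lower. Of the 5 family genes edgeR called none, 3 had an unadjusted p under 0.05, and DESeq2 called 1 as higher and 2 as lower. The highest was IL18R1, the ligand-binding chain of the IL-18 receptor, with 4.09, 4.84 and 2.57 CPM in the fresh libraries and 8.19, 7.71 and 9.385 CPM in the preconditioned ones (log2 fold change 1.14, standard error 0.28, adjusted p = 0.059). It was called without preconditioned replicate 1 (adjusted p = 0.042). IL18BP, the soluble inhibitor of IL-18, was looked at after its values had been seen. It had 27.3, 57.5 and 30.9 CPM in the fresh libraries and 19.0, 18.9 and 8.17 CPM in the preconditioned ones, with an estimated log2 change of −1.33 (standard error 0.41, adjusted p = 0.090). IL18RAP, the other chain of the receptor, had 7, 2 and 15 counts in the fresh libraries and 16, 5 and 3 counts in the preconditioned ones, which overlapped and were too few to be tested.

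The 17 genes of the receptor complex and its kinases were all tested, and edgeR called none of them. Of these genes, 1 had an unadjusted p under 0.05 (against 30.6% of all tested genes). DESeq2 called none of them (against 7.78% of the genes it tested). Their log2 fold changes lay between −0.74 for TAB1, an adaptor of the kinase TAK1, and 0.26 for IRAK2, a kinase of the receptor complex. TAB1 had 36.1, 35.8 and 38.6 CPM in the fresh libraries and 26.35, 17.55 and 22.4 CPM in the preconditioned ones (adjusted p = 0.052 from edgeR). MYD88, the adaptor of the receptors, was at 29.6 to 34.7 CPM in the fresh libraries, inside the range of the preconditioned ones (log2 fold change −0.17, standard error 0.19, adjusted p = 0.58).

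Of 14 genes for processing and release of the cytokines, 8 were in the table under these symbols, and 7 were tested. None was called by edgeR or DESeq2 (against 2.29% and 7.78% of the genes each tested). An unadjusted p under 0.05 was found for 1 of them (against 30.6%). NLRP3, PYCARD, CASP4, NLRP1, AIM2 and CARD8 were not found under these symbols. CASP1, the protease that matures IL-1β and IL-18, was at 0.366 to 1.23 CPM in the fresh libraries and 0.329 to 1.46 CPM in the preconditioned ones, and no difference was detectable at this depth (log2 fold change 0.35, standard error 0.67, adjusted p = 0.75 from edgeR). GSDMD, which forms pores through which the cytokines leave, had 17.2, 13.1 and 15.6 CPM in the fresh libraries and 13.75, 6.715 and 3.52 CPM in the preconditioned ones (log2 fold change −0.94, standard error 0.45, adjusted p = 0.21). Without preconditioned replicate 1 it was called (log2 fold change −1.59, adjusted p = 0.016).

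Of 26 genes known to be induced by IL-1, 25 were in the table, and 23 were tested. The list did not move one way, since 9 had positive and 14 negative log2 fold changes, with a median of −0.12. NFKB1, a subunit of NF-κB, was the single call in edgeR, against 2.29% of all tested genes. An unadjusted p under 0.05 was found for 6 genes of the list, against 30.6% of all tested genes. DESeq2 called 1 as higher (MMP1) and 2 as lower (the chemokine gene CCL2 and NFKB1), against 7.78% of the genes it tested. NFKB1 fell from 83.3, 98.9 and 89.8 CPM in the fresh libraries to 60.65, 34.6 and 34.05 CPM in the preconditioned ones (log2 fold change −1.07, standard error 0.24, adjusted p = 0.050 from edgeR). The call was lost without any 1 of the libraries other than preconditioned replicate 1. NFKBIZ, an IL-1-induced cofactor of NF-κB chosen after its values had been seen, had 79.3, 82.1 and 86.2 CPM in the fresh libraries and 123, 161 and 131 CPM in the preconditioned ones. Its adjusted p was 0.037, and its log2 fold change of 0.74 (standard error 0.13) was under the fold cutoff. The adjusted p was 0.078 to 0.14 without any 1 library other than preconditioned replicate 1. The lowest estimate was that of the cytokine IL6, with 8.84, 26.3 and 65.6 CPM in the fresh libraries and 8.06, 16.7 and 2.34 CPM in the preconditioned ones (log2 fold change −1.89, standard error 0.88, adjusted p = 0.20), and the log2 fold change was −0.96 without fresh replicate 3. The highest was that of the collagenase MMP1 (1.48, standard error 0.36, adjusted p = 0.058), which was called without preconditioned replicate 1 (1.74, adjusted p = 0.012) and by DESeq2 (adjusted p = 5.8e-04). CXCL8 overlapped widely, with 206 to 628 CPM in the fresh libraries and 139 to 748 CPM in the preconditioned ones.

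**Figure D5:**
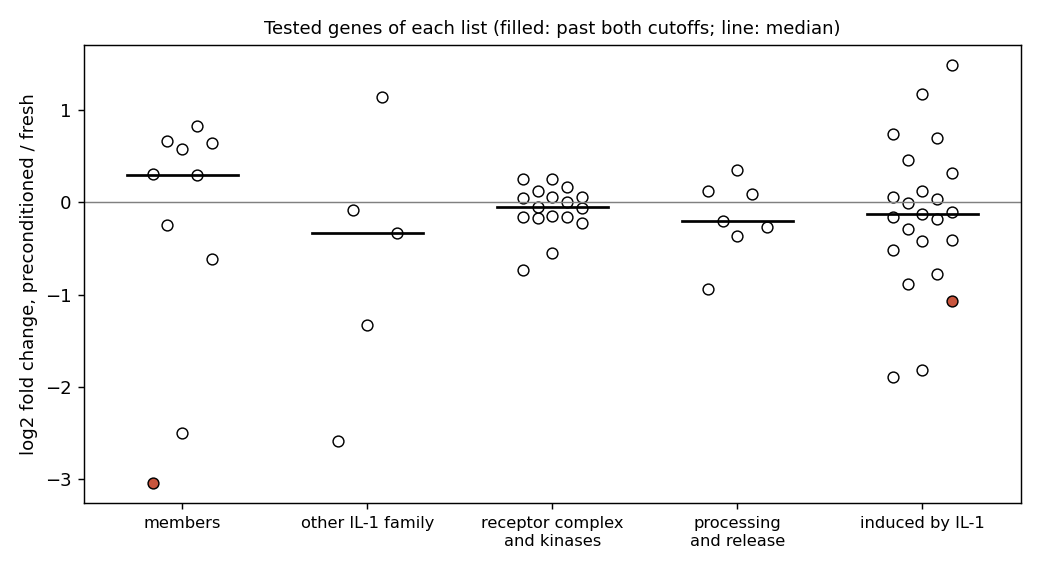
log2 fold changes (vertical axis) of the tested members and of the tested genes in the 4 pathway lists, where each point is a gene, filled points were called and lines mark medians. Of the 10 members IL1RL1 is filled, and NFKB1 is the filled point among the genes induced by IL-1.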

How the data were processed

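RNA-seq of 3 fresh and 3 preconditioned libraries was analysed. The authors aligned reads with hisat2 2.1.0 and counted them per gene with htseq-count 0.11.2, and the counts were deposited without normalization. The deposited FPKM values equal each count over the library's total on genes and over a single length per gene. Build, annotation and strand setting were not given in the sources used here, so no coordinates are printed, and mOryCun1.1 served for names and gene order (10 of 10 members matched by NCBI identifier). RNA extraction is described differently in the methods (an Omega kit) and in the sample records (TRIzol).

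Counts were filtered with filterByExpr (15029 of 22190 genes), scaled by TMM and tested with edgeR 4.0.16 in R 4.3.3 (quasi-likelihood, robust, group as the only factor), with Benjamini-Hochberg adjustment over all tested genes. Standard errors were derived from the F statistic. Replicate libraries differed by more than sampling noise (chi-square per degree of freedom 48.1 to 147). At this depth the spread between libraries limits precision, except for genes of few counts. The fits were tested on simulated counts. Alternatives used DESeq2 1.42.0, limma 3.58.1, other scalings and filters, a replicate block and leaving out each library.

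The members and lists were chosen with earlier results of these data known. Genes were named if they were members, called or at either extreme of a pathway list, family genes by description, cell type markers, or nearest in profile to the member of widest range. IL18BP, IL1RL2, IL18RAP, MYD88, CXCL8 and NFKBIZ were added after their values were seen, as was the fibroblast sum without COL1A1. No paired batch or date is given by the labels.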

Additional observations from a re-analysis of the deposited data

How the results depend on the processing

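With 3 libraries a group, calls depended on the setting. Against 1 member called, 2 were called with DESeq2 (IL1RL1 and IL36G) and 2 without the fold cutoff (IL1RL1 and IL18), and 0 with a minimum of 1 CPM in 3 libraries, a filter that removes IL1RL1. With no filter on low counts, 1 was called (IL1RL1). Leaving out each library gave 0 to 2. Over the whole table, 344 genes were called (163 higher, 181 lower), against 1190 with DESeq2, 565 with library size alone (142 higher, 423 lower), 521 by limma-trend on log2(FPKM + 0.1) (123 higher, 398 lower), 763 without the fold cutoff, and 14 to 1546 when each library was left out. By limma-trend on log2(FPKM + 1) there were 257 (75 higher, 182 lower), and IL36G was called in place of IL1RL1. Of the pathway lists 1 gene was called, against 6 with DESeq2, 2 with either FPKM fit, 2 without the fold cutoff, and 0 to 5 when each library was left out.

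Deviations from the group means correlated at −0.067, −0.073 and −0.11 between libraries with the same replicate number. These values show no pairing by replicate number. They cannot exclude a shared animal or day, neither of which was given in the sources used here. With the replicate number as a block, 0 members, 0 pathway genes and 30 genes of the whole table were called.

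The sign of the log2 fold change turned for IL33 (−0.075 and −0.22 on log2(FPKM + 1) and log2(FPKM + 0.1), and −0.37 to 1.097 when each library was left out, lowest without preconditioned replicate 1). Leaving out a library also turned it for IL1B (−0.26 to 1.07, negative without preconditioned replicate 2), CASP1 (−0.017 to 0.82, negative without preconditioned replicate 1) and IL1RL2 (−0.39 to 0.10, positive without fresh replicate 2, at 0.085, or preconditioned replicate 3), and for CXCL8 (−0.31 to 1.01, negative without preconditioned replicate 2). Among the markers tested and named, it turned for KRT5 (−0.25 to 0.11), KRT15 (−1.58 to 0.99), CDH1 (−0.17 to 0.07), CD14 (−0.93 to 0.40) and PTPRC (−0.25 to 1.39). The cause was not tested. Leaving out each library moved the mean log2 ratio difference between −0.76 and −0.35 for IL1RN over IL1A, −1.44 and 0.17 for IL1RN over IL1B, 0.56 and 2.101 for IL1R2 over IL1R1, −4.04 and −2.91 for IL1RL1 over IL1RAP, and −0.21 and 1.02 for IL18 over IL1B.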
